A study of Mus musculus with 6 samples.

Results

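The set described here holds Myc and 32 genes that carry out ribosome biogenesis, many of them classic targets of Myc, in sorted epithelial cells of the mouse colon. The 33 genes were listed by name, and each was read from the probe set that names it alone, the one with the highest mean over the arrays where a gene had several. Of the 33, 32 had such a probe set, and 29 lay above the floor for dim signal (a mean of 5.81 on the log2 scale) and entered the test. They were tested together with all 12071 genes above that floor, out of 19938 genes with a probe set of their own.

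The study profiled 6 samples, each on its own Affymetrix array. In 3 of them the cells came from re-fed mice given antibiotics during re-feeding (antibiotics), and in 3 from mice re-fed with no such treatment (re-fed). All were wild-type BALB/c males, 6 weeks old, that had gone without food for 36 h and were killed 24 h after food was returned. The cells were sorted as positive for EpCAM, an epithelial surface protein, and negative for CD45, the leukocyte antigen. The antibiotics are not named in the sources used here, the number of mice behind each sample is not given, and no fasted or normally fed group was analysed here, so the values speak of antibiotics in re-fed mice and not of re-feeding itself. The comparison belongs to a study of what gut bacteria contribute to the epithelium when food returns after a fast.

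Ribosomes are built in the nucleolus. RNA polymerase I transcribes one long precursor, small nucleolar ribonucleoproteins (snoRNPs) guide its methylation and pseudouridylation, a large assembly called the processome folds and cuts the part that becomes the small (40S) subunit, and a further group of factors assembles the large (60S) subunit. Myc, a transcription factor that binds the E-box CACGTG together with its partner Max, is known to raise the transcription of genes at every one of these steps, and in the intestinal crypt both Myc and ribosome production are high in dividing progenitor cells.

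Most genes of the set lay higher with antibiotics, by small amounts, and none passed the test over all genes. Of the 29 tested, 27 had a log2 difference (antibiotics minus re-fed) above 0, or 93.1%, where 50.7% of all genes tested did. The median difference was 0.28, a 1.21-fold level, beside 0.0033 for all genes tested. The largest differences were those of Nop56 (0.64), a core protein of the box C/D snoRNPs, Polr1b (0.56), a catalytic subunit of RNA polymerase I, and Mybbp1a (0.50), a nucleolar regulator of that polymerase. With limma, 0 of the 29 had a Benjamini-Hochberg adjusted p under 0.05 (the smallest was 0.127, for Nop56), where 7 of all genes tested, or 0.0580%, had one (0.00828% counting higher ones alone). At an unadjusted p under 0.05 there were 14, all higher, or 48.3%, where 5.30% of all genes were higher at that level. In 13 genes, or 44.8%, the 3 antibiotics arrays lay wholly above the 3 re-fed arrays, as they did in 8.88% of all genes, and in 0 they lay wholly below (19.6% of all genes separated in either direction). On the values as deposited, with no further scaling, 0 of the 29 had an unadjusted p under 0.05, where 0.166% of all genes were higher and 3.69% lower at that level. With each array centred on its median 7 of the 29 did, all higher, where 1.91% of all genes (231) were higher and 1741 genes lower. Counted without the floor for dim signal, 29 of 32 genes lay above 0, with a median of 0.27. Arrays of sorted cells do not tell fewer cells of a type from less RNA per cell.

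The arrays did not contribute evenly. Re-fed replicate 3 was the lowest of the 6 arrays for 23 of the 29 genes, and antibiotics replicate 3 was the highest for 16. Of the 29 genes, 24, 16 and 27 lay above their own 6-array mean in antibiotics replicates 1, 2 and 3, against 11, 10 and 1 in re-fed replicates 1, 2 and 3. The groups did not overlap in the median deviation of the set from the 6-array mean, which was 0.17, 0.038 and 0.24 in the antibiotics arrays and -0.07, -0.047 and -0.31 in the re-fed arrays. Without re-fed replicate 3 the median difference of the set was 0.21 and 7 genes were higher at an unadjusted p under 0.05, where 3.81% of all genes were. Without antibiotics replicate 1 the median was 0.26 and 9 genes were, where 3.17% of all genes were.

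The deposited values of 4 arrays (antibiotics replicates 1 and 2, re-fed replicates 2 and 3) share 372 to 435 numbers per pair, while re-fed replicate 1 shares 154 to 198 with these 4 arrays and antibiotics replicate 3 shares 42 to 67 with each of the others. Antibiotics replicate 3, the highest array for 16 of the 29 genes, also holds only 10829 distinct values, where the other arrays hold 34568 to 34596, so it has fewer numbers to share. The 4 arrays may therefore come from a single normalisation run, here called the common run, a grouping read from the values and not from a label. Within the common run the median difference of the set was 0.27, with 25 of 29 genes above 0, or 86.2%, where 52.6% of all genes were. There were 14 genes higher at an unadjusted p under 0.05, where 8.13% of all genes were, 1 lower (Utp20), and 0 with an adjusted p under 0.05 by limma, where 0.447% of all genes had one.

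Epithelial and leukocyte markers were checked on the same arrays. Epcam read 12.09, 12.20 and 12.08 (log2 expression) in antibiotics samples and 12.29, 12.08 and 12.11 in re-fed samples. Ptprc, which encodes CD45, read 5.30 to 5.54 in antibiotics samples and 5.31 to 5.50 in re-fed samples, below the floor for dim signal in all 6. Of 10 pan-epithelial markers all 10 lay above the floor, and of the markers of other cells 2 of 9 T cell, 3 of 7 B and plasma cell, 2 of 8 myeloid and 5 of 10 stromal and endothelial genes did. The sum of the linear signals was 410 to 421 in antibiotics samples and 416 to 459 in re-fed samples for the T cell list, 1076 to 1323 and 1374 to 1533 for the B and plasma cell list, 542 to 649 and 503 to 621 for the myeloid list, and 687 to 767 and 670 to 809 for the stromal list, each given in the same order of groups. The genes Cd3d, Cd79a, Ms4a1, Csf1r, Pdgfra and Cdh5 were among the dim ones, while other genes of the same lists lay above the floor, as counted above. The pan-epithelial sum was 45360 to 47680 in antibiotics samples and 48838 to 50268 in re-fed samples, so for it and for the B and plasma cell list the antibiotics samples lay lower with no overlap. The part of these markers in the values of the set was not tested.

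**Figure D1:**
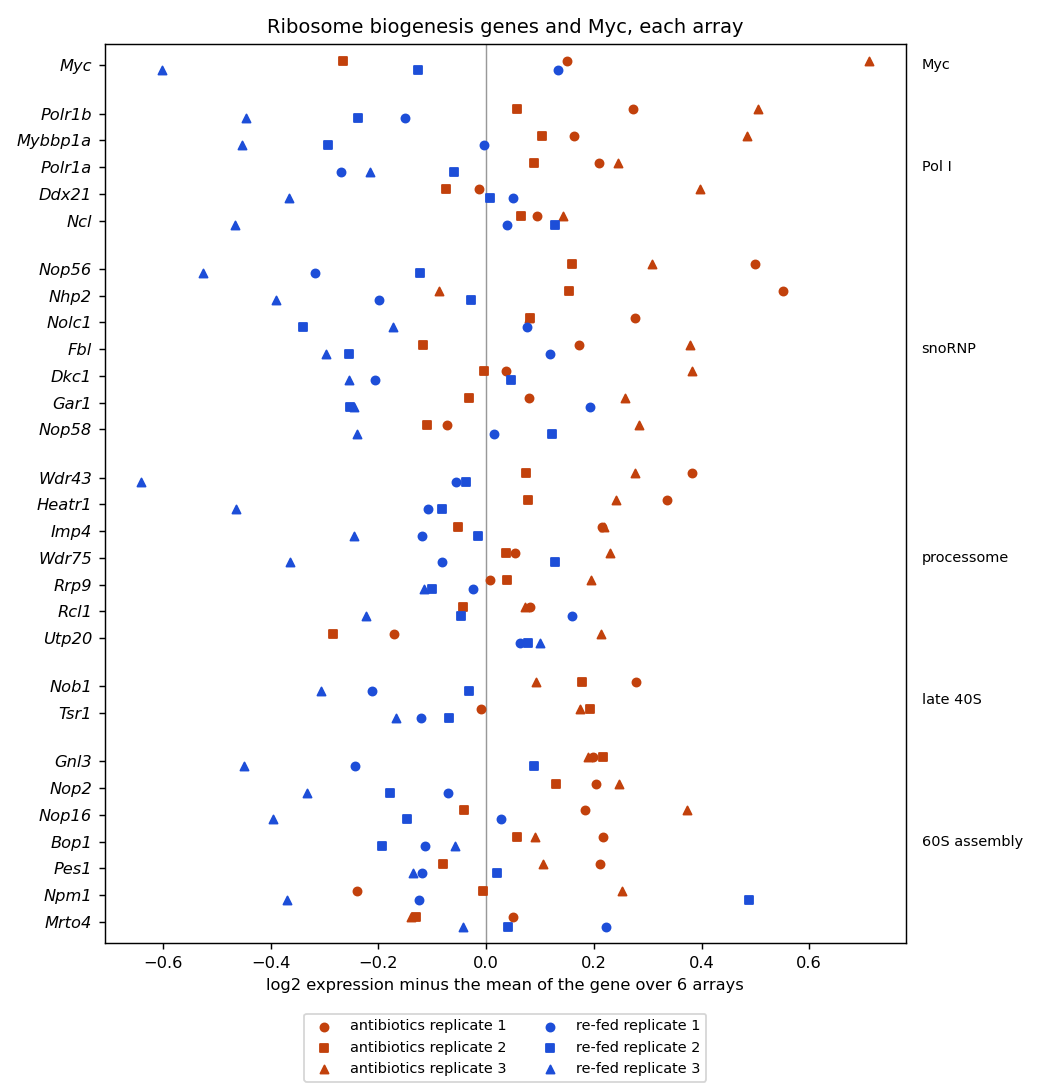
Each row is a gene of the set and each point an array, placed by its log2 expression minus the gene's mean over 6 arrays (horizontal axis), with antibiotics samples in orange and re-fed samples in blue. Most blue triangles, re-fed replicate 3, stand at the far left, where 23 of 29 genes have their lowest value.

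Promoter sequences are shown because the E-box is the site by which Myc is known to act on such genes. A promoter window of RefSeq, from 250 bases before to 50 bases after the start of the gene (mouse build GRCm38.p6), was at hand for 28 of the 33 genes. Those not in the table were Bop1, Fbl, Myc, Npm1 and Rrs1. The E-box CACGTG, which reads the same on both strands, was in the windows of 7 of the 28 genes, or 25%, beside 8.09% of all 27025 genes with a window and 11.6% of the 9664 of them that were tested. The 7 sites follow in lower case on the strand of the gene, with 12 bases on each side where the window allows and the E-box in capitals.
Mybbp1a: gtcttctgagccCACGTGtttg
Wdr43: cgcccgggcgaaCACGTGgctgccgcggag
Utp20: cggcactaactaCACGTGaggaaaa
Imp4: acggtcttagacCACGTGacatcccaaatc
Tsr1: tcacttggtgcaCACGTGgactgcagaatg
Nop2: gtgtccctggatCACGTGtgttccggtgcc
Pes1: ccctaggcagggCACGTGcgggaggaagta

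These stretches lie at chr11:72441355-72441376 (plus strand) for Mybbp1a, chr17:71616220-71616249 (plus) for Wdr43, chr10:88826765-88826789 (minus) for Utp20, chr1:34439696-34439725 (plus) for Imp4, chr11:74898092-74898121 (plus) for Tsr1, chr6:125131811-125131840 (plus) for Nop2 and chr11:3963965-3963994 (plus) for Pes1. The first letter of the E-box was 121 bases before the start of Imp4 and 60 bases before that of Nop2. In the other genes it lay within the first transcribed bases, at position 3 in Pes1, 18 in Wdr43, 25 in Tsr1, 38 in Utp20 and 41 in Mybbp1a. The 7 genes with an E-box had a median difference of 0.25 (-0.16 to 0.50), against 0.28 (-0.15 to 0.64) for the 18 tested genes of the set whose windows held none. Over all genes tested, the medians were 0.0038 with an E-box and 0.00018 without. A match describes letters in a window and does not show that a factor binds there.

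The letters CCGGAAG (or CTTCCGG on the other strand), the core that ETS factors are known to bind, were in 7 of the 28 windows, or 25%, beside 9.93% of all genes and 18.7% of those tested. They were in the windows of Gar1, Heatr1, Nhp2, Nolc1, Nop2, Ppan and Tsr1, and so overlapped with the E-box group in Nop2 and Tsr1. The median difference was 0.34 for the 6 of these that were tested (0.20 to 0.44), against 0.25 for the other 19 (-0.16 to 0.64). The letters TATAAA on either strand were in 3 windows (10.7%, beside 15.7% of all genes and 9.18% of those tested), overlapping with the E-box group in Pes1 and with the ETS group in Ppan. Nop56, whose difference was the largest of the set, had none of these 3 motifs in its window. The 250 bases before its start, at chr2:130274162-130274411 on the plus strand and all in lower case since they hold no match, read as follows.
Nop56: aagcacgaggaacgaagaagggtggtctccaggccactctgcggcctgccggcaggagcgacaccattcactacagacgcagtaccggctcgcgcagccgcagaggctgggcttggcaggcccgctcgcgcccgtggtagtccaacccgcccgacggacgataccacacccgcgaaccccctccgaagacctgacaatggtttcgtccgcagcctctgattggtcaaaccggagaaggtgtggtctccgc

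Myc lay higher with antibiotics on average but had the largest standard error of the 29 genes. It read 7.54, 7.12 and 8.10 in antibiotics samples and 7.52, 7.26 and 6.78 in re-fed samples. The groups overlapped, with the highest value in antibiotics replicate 3 and the lowest in re-fed replicate 3. The means were 7.59 ± 0.49 and 7.19 ± 0.37 (SD, n = 3 each, antibiotics first), a difference of 0.40 (SE 0.25, limma adjusted p = 0.546). It was 0.14 without antibiotics replicate 3, 0.20 without re-fed replicate 3 and 0.63 without antibiotics replicate 2, and within the common run it was 0.31.

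Among genes of RNA polymerase I transcription, all 5 lay above 0, with a median difference of 0.36. In 3 of the 5 the antibiotics arrays lay wholly above the re-fed arrays, as they did in 8.88% of all genes. Polr1b, one of the 2 catalytic subunits, read 7.61, 7.39 and 7.84 in antibiotics samples and 7.19, 7.10 and 6.89 in re-fed samples. The lowest antibiotics array was above the highest re-fed array, and the difference was 0.56 (SE 0.14, limma adjusted p = 0.184), a 1.47-fold level. Polr1a, the largest subunit, read 7.32, 7.20 and 7.36 in antibiotics samples and 6.84, 7.05 and 6.90 in re-fed samples. Its arrays lay close together within each group (SD 0.082 and 0.11), and the difference was 0.36 (SE 0.11, limma adjusted p = 0.241).

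Mybbp1a, which also carries an E-box in its window, read 7.60, 7.54 and 7.92 in antibiotics samples and 7.44, 7.15 and 6.99 in re-fed samples, again with no overlap. Its difference was 0.50 (SE 0.15, limma adjusted p = 0.245), and 0.51 within the common run (adjusted p = 0.0923). Nucleolin (Ncl), an abundant nucleolar protein that binds the precursor RNA, read 8.94, 8.91 and 8.98 in antibiotics samples and 8.88, 8.97 and 8.38 in re-fed samples. Only re-fed replicate 3 stood apart there, and the difference was 0.20 (SE 0.15). Ddx21, a nucleolar RNA helicase, differed by 0.21 (SE 0.16) with overlapping groups.

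The 7 snoRNP genes all lay above 0, with a median difference of 0.29. In 2 of the 7 the antibiotics arrays lay wholly above the re-fed arrays, as in 8.88% of all genes (19.6% separated in either direction). Without antibiotics replicate 3 the median of the snoRNP genes was 0.17. Nop56 read 9.24, 8.90 and 9.05 in antibiotics samples and 8.42, 8.62 and 8.21 in re-fed samples. The gap between the groups was 0.64 (SE 0.14, limma adjusted p = 0.127), or 1.56-fold, and it was 0.65 within the common run. Its paralog Nop58, which sits beside it in the box C/D snoRNP, read 6.72, 6.68 and 7.07 in antibiotics samples and 6.80, 6.91 and 6.55 in re-fed samples. The groups overlapped in part, with the highest value in antibiotics replicate 3 and the lowest in re-fed replicate 3, and the difference was 0.068 (SE 0.14) and -0.033 within the common run. Fibrillarin (Fbl), the methyltransferase of the same particle, differed by 0.29 (SE 0.16), and by 0.21 on its other, dimmer probe set.

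Of the core proteins of the H/ACA snoRNPs, which make pseudouridine, Nhp2 read 7.97, 7.58 and 7.34 in antibiotics samples and 7.23, 7.40 and 7.03 in re-fed samples. Antibiotics replicate 3 fell within the re-fed range, and the difference was 0.41 (SE 0.17, limma adjusted p = 0.363), but 0.24 without antibiotics replicate 1. The pseudouridine synthase Dkc1 differed by 0.28 (SE 0.14) and Gar1 by 0.20 (SE 0.14), both with overlapping groups. Nolc1, a chaperone of snoRNPs, read 7.93, 7.74 and 7.73 in antibiotics samples and 7.73, 7.32 and 7.48 in re-fed samples. The groups only just separated, by a difference of 0.29 (SE 0.13, limma adjusted p = 0.394), which was 0.44 within the common run and 0.19 without re-fed replicate 2.

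Of 7 processome genes, 6 lay above 0 and 1 below, with a median difference of 0.21, or 0.14 without re-fed replicate 3. Wdr43, a protein of the subcomplex that joins the nascent precursor, read 8.12, 7.81 and 8.02 in antibiotics samples and 7.68, 7.70 and 7.10 in re-fed samples. The groups did not overlap, re-fed replicate 3 lay well below its group, and the difference was 0.49 (SE 0.17, limma adjusted p = 0.296), but 0.29 without that array. Heatr1, of the same subcomplex, read 7.44, 7.18 and 7.35 in antibiotics samples and 6.999, 7.02 and 6.64 in re-fed samples. Its difference was 0.44 (SE 0.13, limma adjusted p = 0.256), with the same re-fed array lowest.

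Imp4, which links the processome to the U3 snoRNA, read 9.38, 9.12 and 9.39 in antibiotics samples and 9.05, 9.15 and 8.92 in re-fed samples. Antibiotics replicate 2 lay within the re-fed range, and the difference was 0.25 (SE 0.12, limma adjusted p = 0.416). Rrp9, a U3 snoRNP protein, differed by 0.16 (SE 0.10) with no overlap of the groups. Wdr75 differed by 0.21 (SE 0.14) and Rcl1, which in yeast acts in a cleavage of the precursor, by 0.073 (SE 0.12). Utp20, a large scaffold protein, went the other way, at 6.97, 6.86 and 7.36 in antibiotics samples and 7.21, 7.22 and 7.24 in re-fed samples. The re-fed values were nearly equal and fell between those of the antibiotics arrays, and the difference was -0.16 (SE 0.14), and -0.32 within the common run (adjusted p = 0.19).

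The 2 factors of late small-subunit maturation lay higher with no overlap, as 8.88% of all genes did. Nob1, the nuclease that finishes the small-subunit RNA, read 8.22, 8.12 and 8.03 in antibiotics samples and 7.73, 7.91 and 7.64 in re-fed samples, a difference of 0.37 (SE 0.11, limma adjusted p = 0.258). Tsr1, a factor of the same late particles, read 8.42, 8.62 and 8.60 in antibiotics samples and 8.31, 8.36 and 8.26 in re-fed samples, a difference of 0.24 (SE 0.10, limma adjusted p = 0.384). Within the common run the differences were 0.40 for Nob1 and 0.21 for Tsr1. On the values as deposited they were smaller, at 0.20 for Nob1 and 0.049 for Tsr1 over 6 arrays, and at 0.30 and 0.098 within the common run.

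Of the 11 genes of 60S assembly, 7 were tested, and 6 of these lay above 0 with a median difference of 0.24. Nop2, a methyltransferase of the large-subunit RNA, read 8.01, 7.93 and 8.05 in antibiotics samples and 7.73, 7.62 and 7.47 in re-fed samples. The groups did not overlap, and the difference was 0.39 (SE 0.11, limma adjusted p = 0.221), a 1.31-fold level. Gnl3 (nucleostemin), a nucleolar GTPase, read 6.87, 6.89 and 6.86 in antibiotics samples and 6.43, 6.76 and 6.23 in re-fed samples. The antibiotics arrays were almost equal (SD 0.015) while the re-fed arrays spread (SD 0.27), and the difference was 0.40 (SE 0.14, limma adjusted p = 0.295).

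Bop1, which forms a complex with Pes1 and Wdr12, read 8.27, 8.11 and 8.15 in antibiotics samples and 7.94, 7.86 and 7.999 in re-fed samples. The groups lay apart by a difference of 0.24 (SE 0.10, limma adjusted p = 0.371). Its partner Pes1 differed by 0.16 (SE 0.11) with overlapping groups, and the other partner, Wdr12, was dim, at 5.52 to 6.04 in antibiotics samples and 5.32 to 5.81 in re-fed samples. Nop16 differed by 0.34 (SE 0.15), again with overlap. Mrto4, a nucleolar factor related to a ribosomal stalk protein, differed by -0.15 (SE 0.11), and by -0.09 on its other probe set. The groups of Mrto4 overlapped.

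The remaining genes of this step could be measured only in part. Rrs1 read 4.60 to 5.27 in antibiotics samples and 4.60 to 5.94 in re-fed samples, and Rrp1b 5.53 to 6.11 and 5.39 to 5.71, antibiotics samples first, so both were dim. Ppan had no probe set that names it alone, and the one it shares with a second gene differed by 0.28. Nucleophosmin (Npm1), an abundant nucleolar chaperone, read 8.01, 8.24 and 8.50 in antibiotics samples and 8.12, 8.73 and 7.88 in re-fed samples, with the highest and the lowest value both in the re-fed group. Its difference was 0.0048 (SE 0.21), while the 3 probe sets that name Npm1 together with Gm15484 differed by 0.35, 0.43 and 0.36. These shared probe sets cannot be given to either gene.

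**Figure D2:**
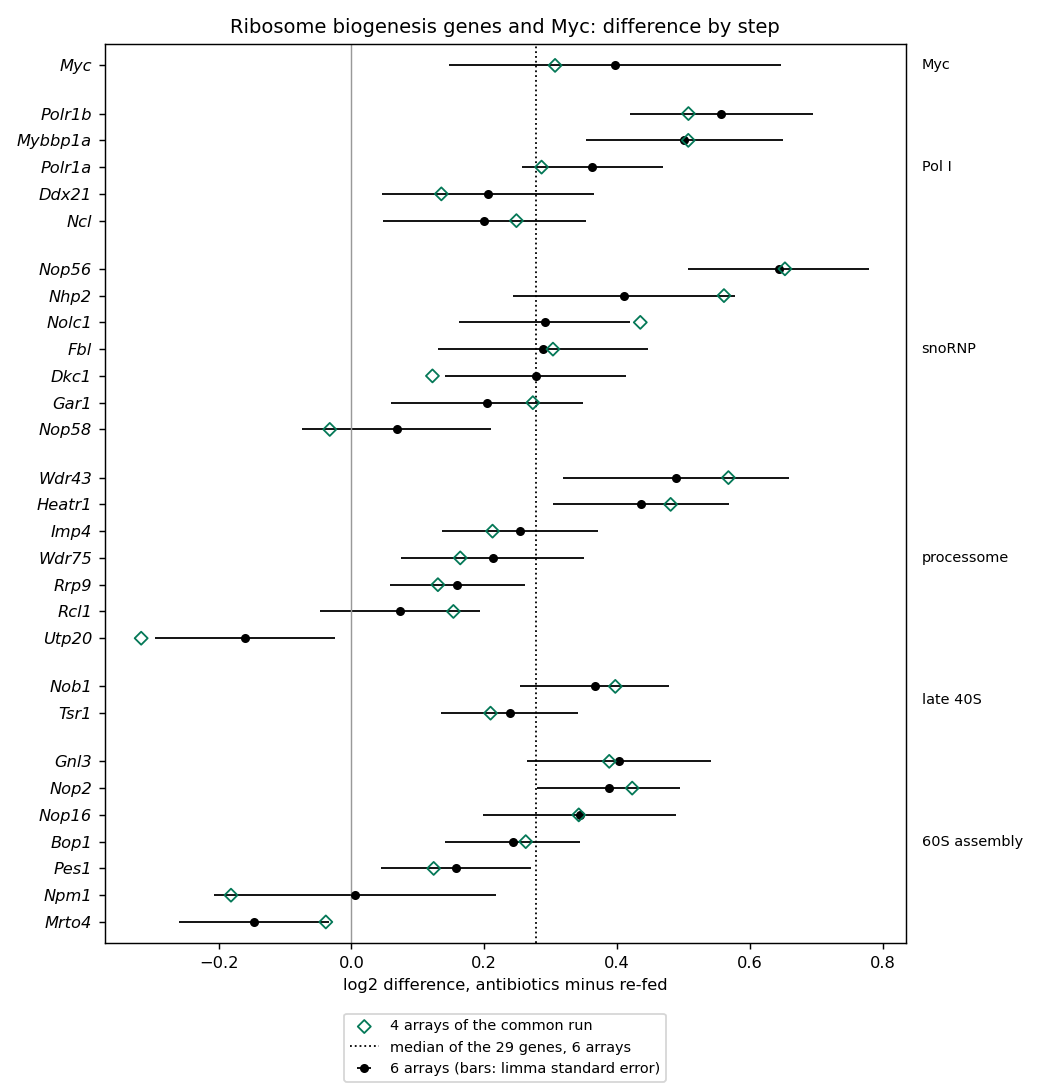
Log2 difference (antibiotics minus re-fed, horizontal axis) of the 29 tested genes by step. Filled points with limma's standard error are from 6 arrays, open diamonds from the 4 arrays of the common run, and the dotted line is the median, 0.28. Nop56 stands farthest right at 0.64, and Utp20 and Mrto4 lie left of 0.

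**Figure D3:**
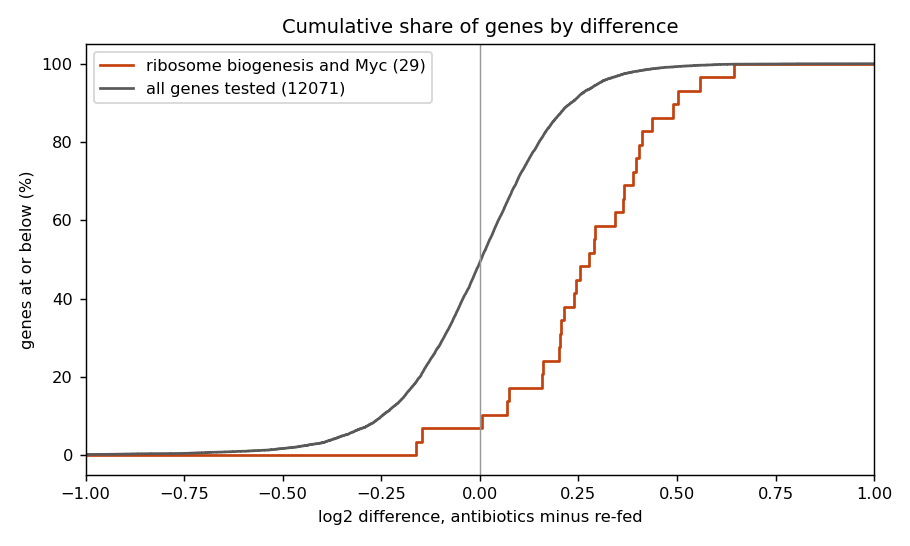
Share of genes (vertical axis, percent) at or below each log2 difference (antibiotics minus re-fed, horizontal axis) for the 29 genes and for all 12071 genes tested. The curve of the set is shifted to the right, with medians of 0.28 and 0.0033.

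The step medians lay close together, from 0.21 in the processome to 0.36 in RNA polymerase I transcription, while genes of 1 step could lie far apart. Within the snoRNP step the differences ran from 0.068 to 0.64. Within the processome they ran from -0.16 to 0.49. Differences between steps were not tested.

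Other genes of the same machinery, listed from general knowledge, had medians of 0.049 to 0.24, beside 0.28 for the 29 genes. In each of these lists, 0 genes had a limma adjusted p under 0.05. As the background for their counts, 50.7% of all genes tested lay above 0. By limma 5.30% of all genes were higher and 7.32% lower at an unadjusted p under 0.05. Other snoRNP proteins had a median difference of 0.24, with 9 of 10 above 0 and 2 at an unadjusted p under 0.05, but 0.14 within the common run and 0.16 without antibiotics replicate 3. Of these, Snu13, which binds the box C/D snoRNA, differed by 0.36 (SE 0.16) and Naf1, an assembly factor of H/ACA snoRNPs, by 0.46 (SE 0.20). Other 60S factors had a median of 0.089, with 33 of 43 above 0 and 4 higher and 0 lower at an unadjusted p under 0.05. Within the common run their median was 0.046, with 27 of 43 above 0, where 52.6% of all genes were. Nol9, a nucleolar kinase, differed by 0.42 (SE 0.14) and Mdn1, a giant ATPase of 60S export, by 0.34 (SE 0.12).

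Other polymerase I genes had a median of 0.083 (0.073 within the common run), with 10 of 14 above 0. By limma 1 was higher at an unadjusted p under 0.05, where 5.30% of all genes were. The 1 higher gene was Cavin1, at 0.31 (SE 0.10), known both as a transcript release factor of the polymerase and as a coat protein of caveolae. It was followed by Tcof1 (treacle), a nucleolar cofactor, at 0.21 (SE 0.10). Other processome proteins had a median of 0.089, with 17 of 27 above 0, and 1 higher and 2 lower at an unadjusted p under 0.05. The 2 lower ones were Utp3 at -0.28 (SE 0.10) and Utp18 at -0.38 (SE 0.15). Other late 40S factors had a median of 0.049, with 7 of 11 above 0, and 2 higher and 1 lower at that level. The 2 higher ones were Trmt112, a partner of several methyltransferases, at 0.49 (SE 0.14) and Rrp12, an export factor, at 0.36 (SE 0.13). In both the groups did not overlap. The lowest difference of the list was -0.37. Within the common run the median of the list was -0.038, with 4 of 11 above 0, and that of all genes was 0.012. Without antibiotics replicate 3 the median of the list was -0.011.

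With the deposited scaling the medians of the other polymerase I, processome, late 40S and 60S lists lay below 0 (-0.069, -0.0085, -0.088 and -0.013), when that of all genes was -0.12. So with that scaling these medians lay above that of all genes but not above 0. The median of the 29 genes was then 0.11, which is 0.23 above that of all genes. Among the genes described above, Nolc1 then differed by 0.15, Imp4 by 0.057, Nop2 by 0.23 and Bop1 by 0.067, all closer to 0 than after quantile normalisation.

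Targets of Myc outside the nucleolus had a median difference of 0.16, with 15 of 19 above 0 and 6 higher and 0 lower at an unadjusted p under 0.05. Among all genes 50.7% lay above 0, and by limma 5.30% were higher and 7.32% lower at that level. The median of these targets depended on the arrays and the scaling. Within the common run it was 0.081, with 3 higher at that level, where 8.13% of all genes were. It was 0.033 on the values as deposited, 0.10 without antibiotics replicate 3 and 0.28 without antibiotics replicate 2. Srm, the spermidine synthase, read 8.73, 8.23 and 8.83 in antibiotics samples and 7.96, 7.94 and 7.78 in re-fed samples, with no overlap. Tfrc, the transferrin receptor, read 8.97, 9.08 and 9.06 in antibiotics samples and 8.61, 8.62 and 8.60 in re-fed samples. The 3 re-fed values of Tfrc were nearly equal and the antibiotics values all higher, by 0.43 (SE 0.10, limma adjusted p = 0.15). The wider Myc network (paralogs, partners, antagonists, regulators and cofactors of Myc, with the related Mlx factors) had a median of 0.013, with 9 of 16 above 0. In it 1 gene was higher and 1 lower at an unadjusted p under 0.05 by limma. Of these Mlxipl (ChREBP), a glucose-responsive factor that pairs with Mlx and not with Max, read 7.72, 7.64 and 7.52 in antibiotics samples and 7.11, 7.05 and 6.93 in re-fed samples. Its groups lay well apart, by 0.59 (SE 0.11, limma adjusted p = 0.0868), and within the common run it passed at 0.69 (limma adjusted p = 0.0467). Mxd1, an antagonist of Myc that is high in differentiated epithelium, differed by -0.33 (SE 0.12, limma adjusted p = 0.334), also with no overlap.

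Cytosolic ribosomal protein genes, whose products the nucleolar machinery assembles, had a median difference of 0.20, with 50 of 55 above 0, where 50.7% of all genes were. By limma 10 were higher and 0 lower at an unadjusted p under 0.05, beside 5.30% and 7.32% of all genes. None of the 55 had a limma adjusted p under 0.05. Rps19 differed by 0.52 (SE 0.13) and Rpl26 by 0.53 (SE 0.16), both with no overlap of the groups. The median was 0.18 within the common run, 0.12 without re-fed replicate 3 and 0.044 on the values as deposited. Ribosomal protein genes have many processed pseudogenes, and signal shared with them was not examined.

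Markers of dividing, crypt-base, absorptive and goblet cells also had medians away from 0, and their part in the values of the set was not tested. The 22 tested of 24 measured genes of S phase and mitosis had a median difference of 0.25, with 21 above 0, and 0.076 within the common run. At an unadjusted p under 0.05 by limma 4 were higher and 0 lower. Of all genes tested, 5.30% were higher and 7.32% lower at that level. Their summed linear signal was 4303 to 6609 in antibiotics samples and 4047 to 4500 in re-fed samples, with the highest value in antibiotics replicate 3. Mki67, which marks cells in cycle, read 8.09, 8.03 and 8.84 in antibiotics samples and 7.56, 8.10 and 7.80 in re-fed samples. Markers of crypt-base cells had a median of 0.31 over 7 of 9 genes and 0.22 within the common run, with a summed signal of 2013 to 2835 in antibiotics samples and 1784 to 2661 in re-fed samples. Of the 7 genes, 4 were higher and 0 lower at an unadjusted p under 0.05. The defining stem cell markers Lgr5 (5.45 to 6.12 over all arrays) and Ascl2 (4.86 to 5.95) were dim. Absorptive colonocyte markers had a median of -0.12 over 13 of 13 genes and -0.19 within the common run, with a summed signal of 68863 to 76660 in antibiotics samples and 76686 to 85206 in re-fed samples. Of the 13 genes, 5 were lower and 1 higher at an unadjusted p under 0.05. The antibiotics arrays lay wholly below the re-fed arrays in 6 and wholly above in 1, as they did in 10.7% and 8.88% of all genes. Goblet cell markers had a median of -0.16 over 8 of 8 genes, with a summed signal of 43657 to 50298 in antibiotics samples and 48537 to 55648 in re-fed samples. Within the common run their median was -0.28, with 0 of the 8 above 0. Over 6 arrays 2 were lower and 0 higher at an unadjusted p under 0.05.

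**Figure D4:**
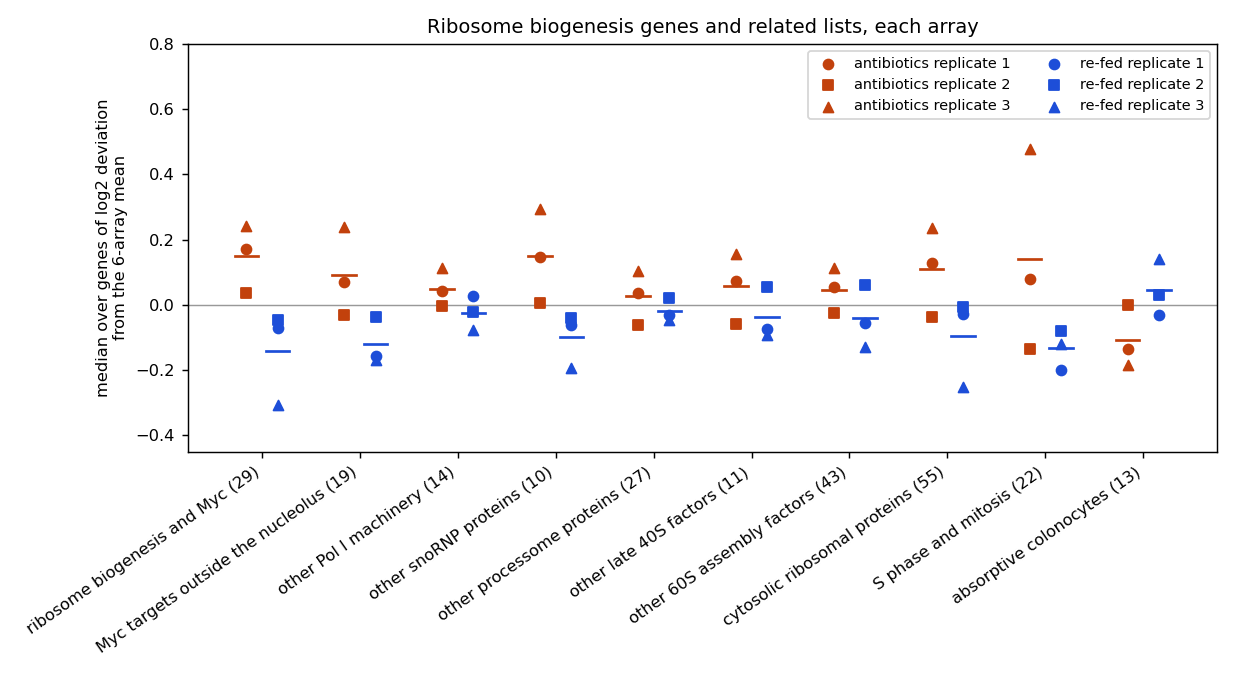
Median over genes of the log2 deviation from the 6-array mean (vertical axis) for the ribosome biogenesis set and related lists, with the number of genes tested in brackets; each point is an array, antibiotics in orange and re-fed in blue, and each bar the mean of 3 arrays. In the ribosome biogenesis set all 3 antibiotics arrays lie above the 3 re-fed arrays. In S phase and mitosis antibiotics replicate 2, at -0.13, falls among the re-fed arrays, and antibiotics replicate 3, at 0.48, is the highest.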

How the data were processed

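The authors deposited log2 expression values of 35557 probe sets on 6 arrays, made with RMA (background correction, normalisation and summary of probes), per the submitters' processing notes; the genome build is not given in the sources used here. Array medians were 6.17, 6.16 and 5.63 in antibiotics and 5.87, 6.06 and 6.08 in re-fed samples, so the values were quantile normalised over probe sets with a gene. Of all probe sets, 21789 named 1 gene, 1621 several and 12147 none here, and 21698 were matched by Entrez identifier to RefSeq with 0 symbols changed. Probe sets under the 40th percentile of means over both groups counted as dim, there being no detection calls.

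For each gene a linear model of group was fitted (limma 3.58.1, R 4.3.3, moderated by eBayes, with no block), and two-sided p-values were adjusted over 12071 genes by Benjamini-Hochberg with a threshold of 0.05. The procedure was tested on simulated data with independent noise and with changes larger than any difference of the set. That test does not show how it performs at differences of the size seen here. The labels call the samples biological replicates. The p-values set the difference between groups against the spread of samples within groups, moderated over all genes tested. The number of arrays limits the precision. The genes, the lists and the tests were chosen with earlier results of these data known. Values of every array were given for Myc, for the 3 genes of each step with the smallest unadjusted p (2 in the late 40S step), and, chosen after their values were seen, for Ncl, Nop58, Utp20 and Npm1. Of each further list of the machinery the 2 genes with the smallest p were named. Listed genes with no probe set of their own were not analysed here.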

Additional observations from a re-analysis of the deposited data

How the results depend on the processing

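The median difference of the ribosome biogenesis set stayed above 0 under all 17 alternatives, from 0.11 with the deposited scaling to 0.34 without antibiotics replicate 2. With the deposited scaling 0 of its genes had an unadjusted p under 0.05 in limma, against 14 after quantile normalisation, and with array weights 11 had an adjusted p under 0.05, all higher, where 4.16% of all genes were higher and 5.53% lower at that level; under the other 16 alternatives 0 had. With the deposited scaling the medians were 0.15 for snoRNPs, 0.11 for the processome, 0.12 for late 40S and 0.067 for 60S assembly. Those of the Myc network (-0.15) and of the other polymerase I (-0.069), processome (-0.0085), late 40S (-0.088) and 60S (-0.013) genes turned below 0. The median of all genes was then -0.12. With median centring the set stood at 0.15 and its late 40S genes at 0.16. The Myc network (-0.11) and the other polymerase I (-0.031) and late 40S (-0.0497) genes turned below 0. In the common run the polymerase III list turned to 0.014. The other late 40S (-0.038), exosome (-0.023) and purine and pyrimidine (-0.003) lists turned below 0 there. With deposited scaling in the common run the late 40S genes of the set were at 0.20. Leaving out 1 array gave 0.21 to 0.34 for the set, 0.32 to 0.42 for polymerase I, 0.17 to 0.40 for snoRNPs, 0.14 to 0.31 for the processome, 0.26 to 0.35 for late 40S and 0.20 to 0.28 for 60S assembly. The cause of these shifts was not tested.

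Over all genes 7 had an adjusted p under 0.05. The count was 45 with the deposited scaling, 62 with median centring, 2 with no filter, 43 with the 60th percentile as floor, 54 in the common run, 63 there with deposited scaling, 1169 (9.68%) with array weights, 43 with an intensity trend and 0 to 11 without 1 array (0 without antibiotics replicate 1, where 1040 had an unadjusted p under 0.05). The replicate numbers were not taken as pairs. Deviations of same-numbered samples correlated at 0.021, -0.034 and -0.22, and those of differently numbered samples at -0.17 to 0.24. With 3 arrays in each group these values cannot show whether the samples were paired. With the replicate number as a block 0 genes of the set had an adjusted p under 0.05, and over all genes 7 had one. With that block 11 genes of the set were higher at an unadjusted p under 0.05 by limma, where 4.23% of all genes were.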

Other observations

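Lists of neighbouring pathways that supply or follow ribosome production had medians of -0.019 to 0.087. Those of the other polymerase I, processome and 60S lists were 0.083, 0.089 and 0.089. Purine and pyrimidine synthesis had a median log2 difference (antibiotics minus re-fed) of 0.087 over 14 genes, with 10 above 0, and -0.003 within the common run. Atic, which closes the purine ring, read 8.79, 8.36 and 8.90 in antibiotics samples and 8.25, 8.22 and 8.05 in re-fed samples, with no overlap of the groups and a difference of 0.51 (SE 0.15, limma adjusted p = 0.234). Gart, an earlier enzyme of the same path, differed by 0.30 (SE 0.15). The machinery of RNA polymerase III, which makes the small 5S ribosomal RNA and tRNAs, had a median of -0.019 over 18 genes, with 8 above 0. Brf2 differed by -0.33 (SE 0.13) and the subunit Polr3d by 0.31 (SE 0.14), both with overlapping groups. The exosome and related nucleases, which trim precursor RNA, had a median of 0.0096 over 14 genes, with 8 above 0. The exonuclease Eri1 differed by -0.39 (SE 0.15) and the exosome helicase Mtrex by -0.24 (SE 0.10), and in both the antibiotics arrays lay wholly below the re-fed arrays, as in 10.7% of all genes. In these 3 lists 0 genes had a limma adjusted p under 0.05, and 4 an unadjusted one, where 12.6% of all genes had one. These were 1 higher in purine and pyrimidine synthesis, 1 lower in polymerase III and 2 lower in the exosome list.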
